A study of Rattus norvegicus with 9 samples.

Results

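Voltage-gated calcium channels carry the calcium that triggers transmitter release and shapes firing in spinal cord neurons. The genes followed here were the 7 alpha1 genes Cacna1a, Cacna1b, Cacna1c, Cacna1d, Cacna1e, Cacna1g and Cacna1h, which encode pore-forming subunits, and the 3 alpha2delta genes Cacna2d1, Cacna2d2 and Cacna2d3, which encode auxiliary subunits. They were taken by gene name, and each of the 10 matched 1 of the 34890 loci in the expression table. Male Sprague Dawley rats, labelled WT, were used in 3 groups of 3 samples that the labels call biological replicates. JA rats had a sham operation and received normal saline by mouth. SNI rats had a spared nerve injury, in which 2 branches of the sciatic nerve (tibial and common peroneal) are tied and cut and the sural branch is left, and received the same saline. PLM rats had the same injury and received paeoniflorin, a glycoside of peony root, at 20.65 mg/ml with liquiritin, a flavonoid glycoside of licorice, by gastric infusion for 3 weeks. For liquiritin the labels give 3.98, 3.99 and 3.100 mg/ml in the 3 PLM samples. RNA was from the ipsilateral L3-L6 spinal cord, a mixture of all its cell types, so fewer cells of a type and less RNA per cell cannot be told apart. No group analysed here had the drugs without the injury.

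An alpha1 subunit forms the pore and the voltage sensor, and its gene sets the current type. Cacna1a gives P/Q-type, Cacna1b N-type and Cacna1e R-type channels, and these Cav2 channels serve mainly at nerve terminals. Cacna1c and Cacna1d give L-type channels, which couple depolarization to gene expression and to plateau firing, and Cacna1g and Cacna1h give T-type channels, which open near rest and support burst firing. Alpha2delta subunits are largely extracellular and promote the surface level of the pore. The products of Cacna2d1 and Cacna2d2 bind gabapentin and pregabalin, drugs used against neuropathic pain, and injury is known to raise Cacna2d1 in sensory neurons of the dorsal root ganglion.

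Promoter windows are shown for 4 genes, because Cacna1e was the member whose level went apart from the rest in PLM, Cacna2d1 encodes a drug-binding subunit, and Cacna1b and Cacna2d2 were the pair whose levels went most closely together. Each is a RefSeq window of the GRCr8 build, 300 bases from 250 before to 50 after an annotated start, on the gene's strand from 5′ to 3′. Capitals mark GGGCGG, the core of a GC box, on either strand.
Cacna1e: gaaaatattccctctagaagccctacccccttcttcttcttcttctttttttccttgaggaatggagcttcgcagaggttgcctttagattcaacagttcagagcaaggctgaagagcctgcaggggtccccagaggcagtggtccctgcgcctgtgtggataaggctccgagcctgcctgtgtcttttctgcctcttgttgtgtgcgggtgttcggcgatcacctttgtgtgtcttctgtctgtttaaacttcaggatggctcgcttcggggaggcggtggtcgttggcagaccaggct
Cacna2d1: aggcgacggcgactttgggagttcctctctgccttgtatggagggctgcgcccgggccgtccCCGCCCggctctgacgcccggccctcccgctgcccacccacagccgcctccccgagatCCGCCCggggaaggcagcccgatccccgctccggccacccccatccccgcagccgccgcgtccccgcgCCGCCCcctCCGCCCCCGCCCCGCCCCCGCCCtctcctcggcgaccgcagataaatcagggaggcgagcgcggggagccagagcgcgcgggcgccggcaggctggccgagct
Cacna1b: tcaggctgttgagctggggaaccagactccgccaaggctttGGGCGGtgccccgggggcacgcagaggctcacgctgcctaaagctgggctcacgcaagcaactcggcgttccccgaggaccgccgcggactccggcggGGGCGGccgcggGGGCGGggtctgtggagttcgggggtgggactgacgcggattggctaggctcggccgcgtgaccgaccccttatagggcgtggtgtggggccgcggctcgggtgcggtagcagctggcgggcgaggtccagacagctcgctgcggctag
Cacna2d2: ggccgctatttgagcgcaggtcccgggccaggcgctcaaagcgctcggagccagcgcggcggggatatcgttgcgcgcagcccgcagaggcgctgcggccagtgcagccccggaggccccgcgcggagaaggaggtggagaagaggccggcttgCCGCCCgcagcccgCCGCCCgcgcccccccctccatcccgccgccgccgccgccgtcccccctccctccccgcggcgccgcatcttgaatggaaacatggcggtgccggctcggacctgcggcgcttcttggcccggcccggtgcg
They lie at chr13:69444761-69445060 on the minus strand for Cacna1e, chr4:20330098-20330397 on the minus strand for Cacna2d1 (the first of its 3 windows), chr3:27944236-27944535 on the minus strand for Cacna1b and chr8:116950856-116951155 on the plus strand for Cacna2d2. The GC box core occurred 7 times in the Cacna2d1 window, 3 times in that of Cacna1b and 2 times in that of Cacna2d2, and was not found in the Cacna1e window. G and C made up 53.7% of the Cacna1e window, against 78.3% for Cacna2d1, 72.0% for Cacna1b and 77.0% for Cacna2d2, and the median over all 33469 windows was 51.7%. Windows were found for 8 of the 10 members (all but Cacna1g and Cacna1h), and 6 of the 8 held the GC box core, which 33.1% of all windows hold on either strand. TATAAA was in no member's window and in 14.2% of all windows. CCAAT was in a window of 3 members and in 37.5% of all windows, and TGACG, part of a cAMP response element, in a window of 3 members and in 21.2% of all windows. None of the 4 motifs contains another. A match is a description of these letters, not a binding site.

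The table gives TPM, which is scaled for transcript length and to a fixed total per sample, so levels of different genes can be set side by side. Over the 9 samples the alpha2delta gene Cacna2d3 had the highest mean level (16.5 TPM ± 7.96, SD, n = 9), followed by Cacna1e (14.5 ± 2.93), Cacna2d2 (14.5 ± 3.14) and Cacna1a (10.9 ± 2.07). Cacna1g (6.56 ± 1.14), Cacna1b (5.99 ± 1.097) and Cacna2d1 (5.10 ± 0.501) lay in the middle. The L-type genes Cacna1d (1.99 ± 0.416) and Cacna1c (1.72 ± 0.320) and the T-type gene Cacna1h (2.22 ± 0.335) were lowest. In an exact two-sided sign-flip test over the 9 samples, adjusted over the 9 pairs of neighbours, 5 pairs differed: Cacna2d2 was above Cacna1a (adjusted p = 0.0117), Cacna1a above Cacna1g (0.0117), Cacna1b above Cacna2d1 (0.0176), Cacna2d1 above Cacna1h (0.0117) and Cacna1d above Cacna1c (0.0352). When each sample was left out in turn, the first 4 of these pairs passed every time, and that of Cacna1d and Cacna1c in 2 of 9 settings, its adjusted p running from 0.0281 to 0.0703. The samples pool 3 groups, and the smallest p this test can give is 0.00391. Cacna2d3 and Cacna1e, Cacna1e and Cacna2d2, Cacna1g and Cacna1b, and Cacna1h and Cacna1d did not differ beyond their spread. The order below the first 3 genes was the same in JA, SNI and PLM. Cacna2d3 had the highest mean in JA and SNI, and Cacna1e in PLM. Within JA, Cacna2d3 was above Cacna2d2 only in JA replicate 3 (18.79 against 10.23 TPM). It was below Cacna2d2 in JA replicates 1 (18.43 against 20.03) and 2 (7.40 against 12.77). For Cacna2d3 the first rank in SNI and over the 9 samples rested on SNI replicate 1. Without that sample the SNI mean of Cacna2d3 was 12.1 TPM, below Cacna2d2 (14.5) and Cacna1e (12.3), and over the other 8 samples it averaged 14.3 TPM against 14.5 for Cacna1e and 14.0 for Cacna2d2.

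**Figure D1:**
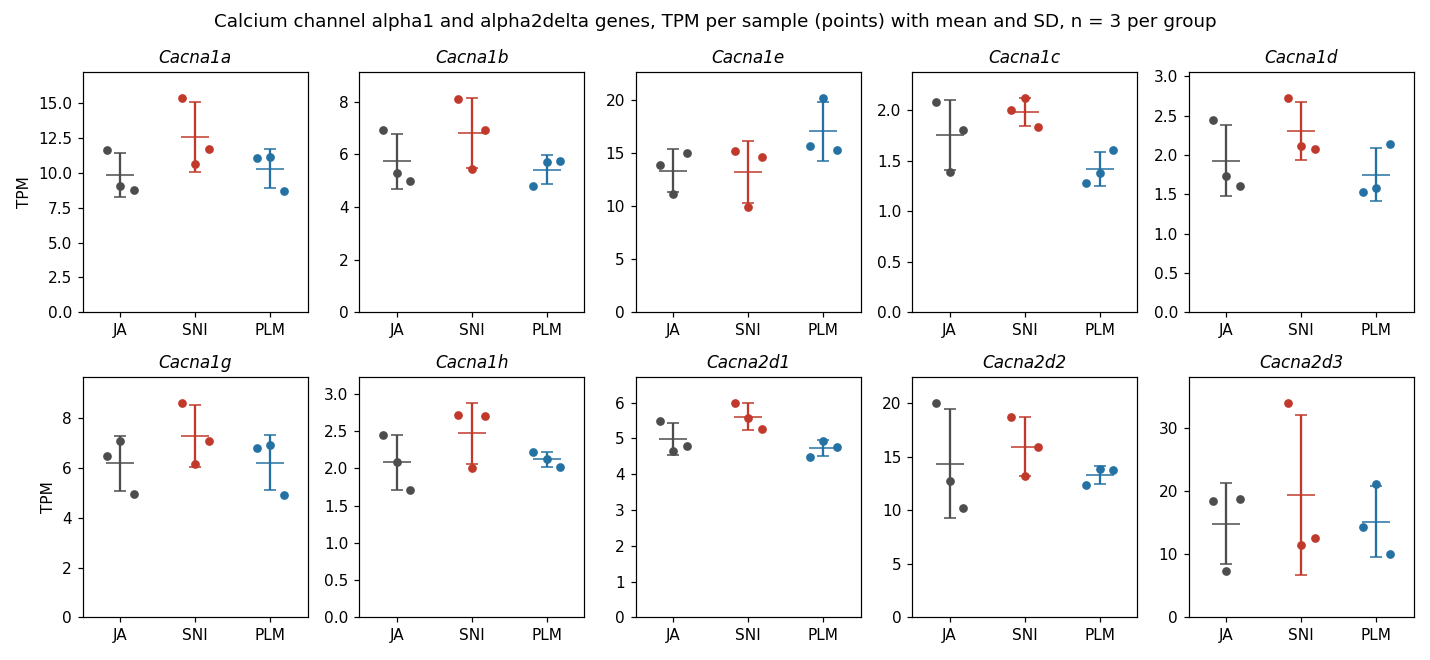
TPM of each gene (vertical axis, from 0) in the JA, SNI and PLM samples, 1 point per sample, with the group mean (horizontal bar) and SD (whiskers), n = 3 per group. The PLM points of Cacna1e lie above all JA and SNI points, those of Cacna1c and Cacna2d1 lie below all SNI points, and Cacna2d3 spreads from 7.40 to 34.0 TPM.

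The comparison of PLM with SNI asks how channel expression in injured cord differed with the drug combination. None of the 10 members passed a Benjamini-Hochberg adjusted p of 0.05 in limma, and none passed an unadjusted p of 0.05. On the deposited values the members took part in a shift of the whole table: 9 of 10 had a lower fitted level in PLM, with a median log2 difference of -0.23, and over all 15474 genes tested 85.0% were lower, with a median of -0.21. Of all genes, 13.9% passed the adjusted and 37.1% the unadjusted threshold. Cacna1e, the R-type gene, was the exception in direction.

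Cacna1e measured 15.67, 20.24 and 15.26 TPM in the PLM samples, 15.20, 9.90 and 14.63 TPM in SNI, and 13.86, 11.11 and 15.03 TPM in JA. Every PLM sample lay above every SNI and JA sample, although the lowest PLM and the highest SNI sample were 15.26 and 15.20 TPM. The log2 difference of PLM from SNI was 0.35 (SE 0.18, 95% confidence interval -0.09 to 0.79, adjusted p = 0.203 in limma), a 1.28-fold difference in TPM + 1.

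The alpha2delta gene Cacna2d1 measured 4.48, 4.92 and 4.77 TPM in PLM, 5.99, 5.57 and 5.26 TPM in SNI, and 5.48, 4.65 and 4.79 TPM in JA. The PLM samples were all below the SNI samples and overlapped the JA samples. Its log2 difference of PLM from SNI was -0.21 (SE 0.09, interval -0.42 to 0.004, adjusted p = 0.140 in limma), close to the median of all genes.

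Cacna1c, an L-type gene, measured 1.28, 1.38 and 1.61 TPM in PLM, 2.00, 2.12 and 1.84 TPM in SNI, and 2.08, 1.39 and 1.81 TPM in JA. The PLM and SNI samples did not overlap, while the JA samples spanned much of both. The log2 difference of PLM from SNI was -0.30 (SE 0.13, adjusted p = 0.146 in limma). Cacna1d, the other L-type gene, measured 1.53, 1.58 and 2.14 TPM in PLM, 2.73, 2.11 and 2.07 TPM in SNI, and 2.44, 1.73 and 1.61 TPM in JA, and its groups overlapped.

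Among the members, then, 2 were lower and 1 higher in PLM than SNI with no overlap. Of all genes tested, 41.9% were lower and 1.59% higher in this way.

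The N-type gene Cacna1b measured 4.78, 5.71 and 5.75 TPM in PLM, 8.11, 5.45 and 6.92 TPM in SNI, and 6.94, 5.31 and 4.98 TPM in JA. Cacna1a, the P/Q-type gene, measured 11.04, 11.16 and 8.71 TPM in PLM, 15.41, 10.65 and 11.73 TPM in SNI, and 11.65, 9.08 and 8.79 TPM in JA. For both genes 1 SNI sample, SNI replicate 1, stood highest of all 9, and the groups overlapped. The log2 difference of PLM from SNI was -0.28 (SE 0.15) for Cacna1b and -0.26 (SE 0.16) for Cacna1a.

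Of the T-type genes, Cacna1g measured 6.79, 6.91 and 4.93 TPM in PLM, 8.62, 6.16 and 7.10 TPM in SNI, and 6.50, 7.09 and 4.97 TPM in JA. Cacna1h measured 2.22, 2.13 and 2.02 TPM in PLM, 2.71, 2.00 and 2.70 TPM in SNI, and 2.45, 2.08 and 1.71 TPM in JA. The 3 groups overlapped for both genes, and the log2 differences of PLM from SNI were -0.20 (SE 0.16) and -0.15 (SE 0.13).

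The other alpha2delta genes varied more than Cacna2d1 did. Cacna2d2 measured 12.34, 13.84 and 13.72 TPM in PLM, 18.71, 13.16 and 15.93 TPM in SNI, and 20.03, 12.77 and 10.23 TPM in JA. Cacna2d3 measured 14.36, 21.17 and 9.98 TPM in PLM, 34.00, 11.55 and 12.55 TPM in SNI, and 18.43, 7.40 and 18.79 TPM in JA. All groups of both genes overlapped. For Cacna2d3 the highest sample was 4.59 times the lowest and the standard deviation over 9 samples was 48.3% of the mean, against 1.34 times and 9.82% for Cacna2d1. Its interval for PLM against SNI ran from -1.29 to 0.84 on the log2 scale, and without SNI replicate 1 the difference turned from -0.22 to 0.25.

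**Figure D2:**
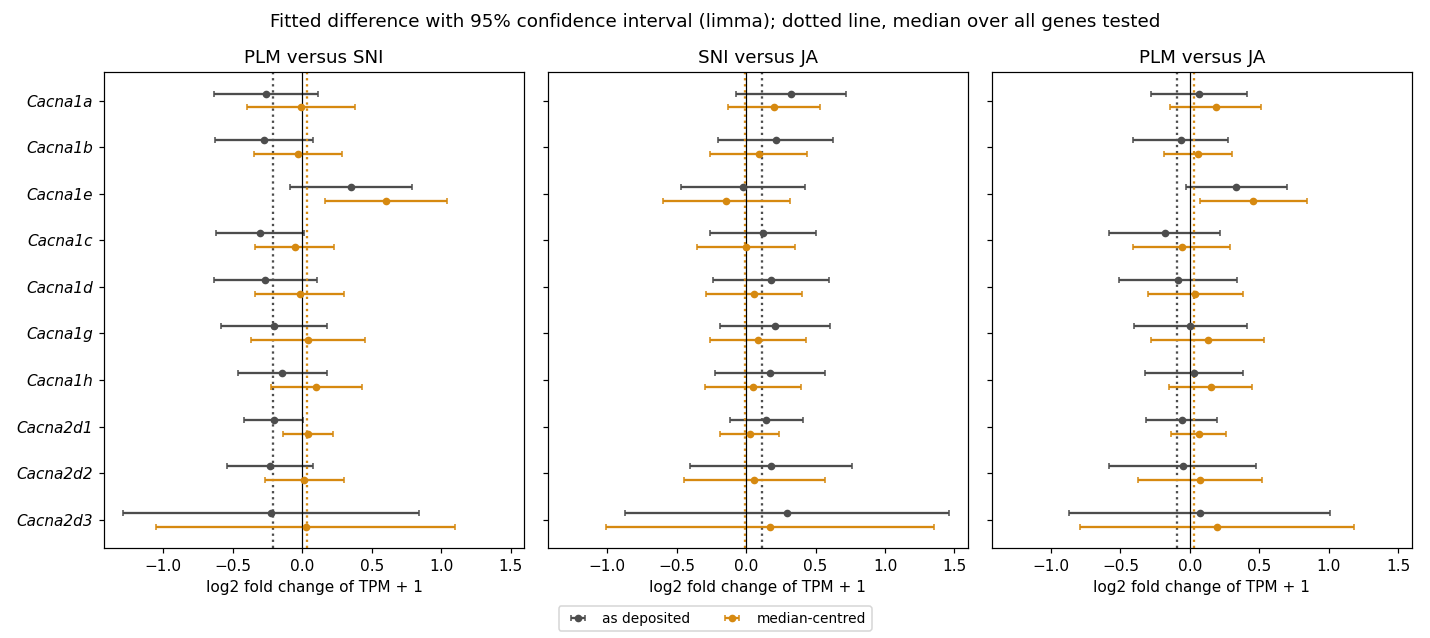
Fitted log2 difference of TPM + 1 (horizontal axis) for each gene in the 3 comparisons, as deposited (grey) and after median centring (orange), with 95% confidence intervals from limma (n = 3 per group). Dotted lines mark the median over all genes tested, and only the centred intervals of Cacna1e in PLM versus SNI (0.16 to 1.04) and PLM versus JA (0.07 to 0.84) lie wholly above 0.

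Since the sample medians of log2(TPM + 1) were 3.18 to 3.30 in PLM, 3.47 to 3.53 in SNI and 3.30 to 3.46 in JA, the comparison was repeated with each sample centred on its median, which moved the median of all genes for PLM against SNI from -0.21 to 0.04. For 9 members the centred difference was between -0.06 and 0.10, and for 5 of these (Cacna1g, Cacna1h, Cacna2d1, Cacna2d2 and Cacna2d3) the sign turned. The centred difference of Cacna1e was 0.60 (SE 0.18, interval 0.16 to 1.04), a 1.52-fold difference that passed the unadjusted threshold in limma, and its PLM samples again lay above all SNI samples. Its adjusted p was 0.187, so Cacna1e was not called, and no member was. Of all genes, 0.814% passed the adjusted threshold, 16.9% the unadjusted one, and 14.1% were higher in PLM with no overlap. For Cacna2d1 the centred interval ran from -0.14 to 0.22, and among the others, apart from Cacna1e and Cacna2d3, the highest upper bound was that of Cacna1g, whose interval ran from -0.37 to 0.45.

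**Figure D3:**
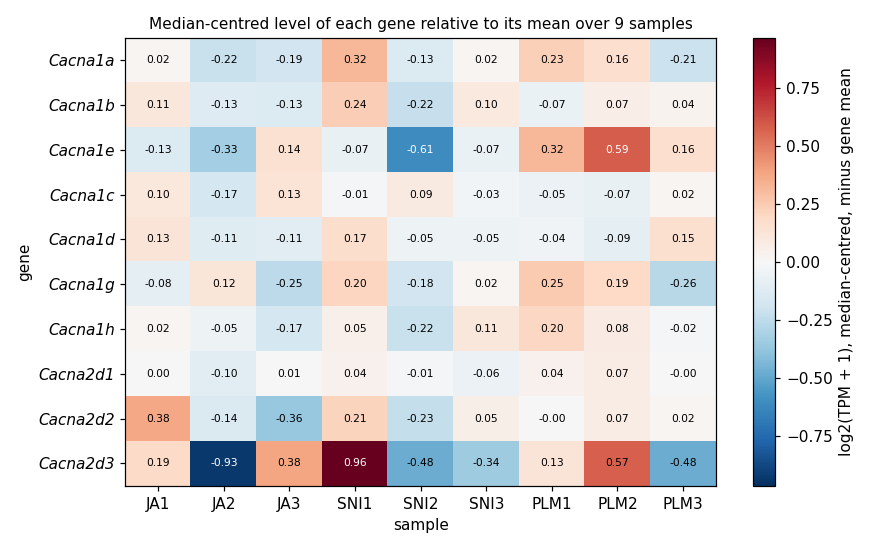
Median-centred log2(TPM + 1) of each gene minus its mean over the 9 samples, by sample (columns) and gene (rows), with red for above and blue for below the mean. Cacna1e is above its mean in all 3 PLM samples (0.16 to 0.59), and Cacna2d3 runs from -0.93 in JA replicate 2 to 0.96 in SNI replicate 1.

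The comparison of SNI with JA asks how channel expression differed with nerve injury. No member passed the adjusted or the unadjusted threshold in limma on the deposited or the centred values, and no member's deposited groups were free of overlap. On the deposited values 9 of 10 members had a higher fitted level in SNI, with a median log2 difference of 0.18, against 0.12 over all 15557 genes. The whole table shifted this way, and only 23.6% of all genes had a lower fitted level in SNI. The highest of the members was Cacna1a at 0.32 (SE 0.17, interval -0.08 to 0.72, adjusted p = 0.614). Cacna2d1 differed by 0.15 (interval -0.12 to 0.41, adjusted p = 0.649), so a rise of over 1.33-fold in TPM + 1 lay outside its interval in this whole-cord tissue. Cacna1e differed by -0.02 (interval -0.47 to 0.42). After centring the members had a median of 0.06, with Cacna1a highest at 0.20. Of all genes, 0% passed the adjusted threshold on either scale, 7.1% (deposited) and 4.83% (centred) passed the unadjusted one, and on the deposited values 12.1% were higher and 1.66% lower in SNI with no overlap.

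The comparison of PLM with JA sets treated injured cord against sham cord. The members had 5 fitted differences below and 5 above 0, while 71.2% of all 15349 genes were below 0. Their median was -0.02, against -0.10 over all genes. After centring 9 members were above 0, while 43.7% of all genes were below 0. No member passed the adjusted or unadjusted threshold in limma on the deposited values, while of all genes 0.0195% and 11.8% did. Only Cacna1e was free of overlap, with a higher level in PLM (log2 difference 0.33, SE 0.15, interval -0.03 to 0.70, adjusted p = 0.462), against 2% of all genes higher and 15.7% lower in this way. After centring its difference was 0.46 (interval 0.07 to 0.84, adjusted p = 0.494 in limma), past the unadjusted threshold and again without overlap, while 0.013% of all genes passed the adjusted threshold, 9.98% the unadjusted one and 9.51% were higher with no overlap. This comparison shares its PLM samples with PLM against SNI and its JA samples with SNI against JA, so the 3 are not independent.

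Within the family, Cacna1e took a larger share of the alpha1 total in PLM. It made up 36.2%, 41.2% and 37.8% of the summed alpha1 TPM in PLM, 27.7%, 25.8% and 31.1% in SNI, and 30.2%, 29.4% and 38.6% in JA. PLM lay above SNI without overlap and overlapped JA through JA replicate 3. With 3 against 3 samples the smallest exact two-sided p is 0.1, so these shares are given with no test. The ratio of Cacna1e to Cacna1b averaged 1.93 ± 0.158 in SNI, 3.16 ± 0.457 in PLM and 2.37 ± 0.564 in JA (SD over 3 samples), and its ratio to Cacna1a averaged 1.05 ± 0.169, 1.66 ± 0.212 and 1.37 ± 0.291. Both ratios were higher in every PLM than in every SNI sample and overlapped JA. The share and the ratios reuse the Cacna1e values that set this gene apart, so they are not separate evidence. The ratios were not planned, and how many other genes would differ in this way was not counted. These ratios are taken within a sample, so a shift common to all its genes does not enter them. The T-type members Cacna1g and Cacna1h held 20.3% ± 3.62 of the summed TPM of the alpha1 members in JA, 20.9% ± 0.294 in SNI and 18.8% ± 1.84 in PLM, with overlap. Cacna1i, a T-type gene that is not a member, is in neither sum.

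**Figure D4:**
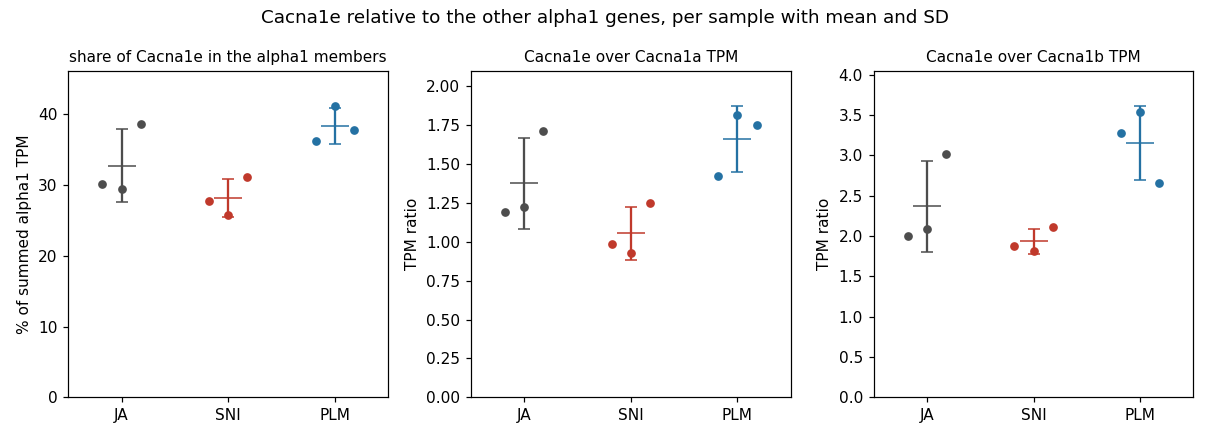
Share of Cacna1e in the summed TPM of the 7 alpha1 genes (left, percent) and its TPM ratio to Cacna1a (middle) and Cacna1b (right), 1 point per sample with group mean and SD, n = 3 per group, axes from 0. PLM lies above SNI without overlap in each panel (38.4% against 28.2% in the left one), and JA overlaps both groups.

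The alpha2delta genes kept no such difference. Cacna2d3 ranged from 29.8% to 57.9% of their summed TPM over the 9 samples, with means of 42.4% in JA, 44.4% in SNI and 44.7% in PLM. The ratio of Cacna2d2 to Cacna2d1 averaged 2.85 ± 0.765 in JA, 2.84 ± 0.415 in SNI and 2.81 ± 0.0609 in PLM. Summed alpha2delta TPM was 0.828 ± 0.154 of summed alpha1 TPM in JA, 0.859 ± 0.187 in SNI and 0.746 ± 0.0588 in PLM, with overlap in every comparison.

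The tissue was checked against markers of its cells. The 17 neuron markers summed to 7882 to 9926 TPM in SNI, 7060 to 8163 in PLM and 4604 to 8286 in JA. By fitted level, 17 were lower in PLM than SNI as deposited (85.0% of all genes) and 7 after centring. None was lower in SNI than JA on either scale (medians 0.31 and 0.19). In PLM against JA 4 were lower as deposited and 0 after centring (median 0.36). None was called in limma in any comparison. Of the 12 astrocyte markers, which include Gfap and Aqp4, 11 were lower in PLM than SNI at an adjusted p under 0.05 on the deposited and 8 on the centred values, against 13.9% and 0.814% of all genes called, and they summed to 3007 to 3581 TPM in PLM against 5455 to 6597 in SNI and 4128 to 6498 in JA. Summed TPM of oligodendrocyte markers was also higher in PLM (50195 to 51251) than SNI (46461 to 48695) with no overlap, as was that of Schwann cell markers (37743 to 38329 against 31984 to 37541), a list that shares Mbp and Sox10 with the former, and that of blood cell markers (2073 to 2648 against 993 to 2020). A sum weights markers by their level. Taken singly, 6 of 10 oligodendrocyte and 7 of 9 Schwann cell markers had a fitted log2 difference below 0 on the deposited values (medians -0.11 and -0.60), and 0 and 6 after centring (0.14 and -0.35). None of either list was called on either scale in limma. Sums of oligodendrocyte precursors (242 to 280 against 307 to 320) and dorsal root ganglion neurons were lower in PLM with no overlap, as were 41.9% of all genes. Of 5 precursor markers tested, 5 were below 0 as deposited and 3 after centring (medians -0.26 and -0.01), and none was called in limma. Only 1 ganglion marker passed the filter. Sums of microglia, endothelium, smooth muscle and pericytes, and ependyma overlapped. Of 10 microglia markers, 1 was lower in PLM than SNI at an adjusted p under 0.05 in limma on the deposited values and no other passed the unadjusted threshold. After centring none was called, and 7 were higher and 1 lower at an unadjusted p under 0.05, against 16.9% of all genes in either direction. Against JA, oligodendrocyte and endothelial sums were lower in SNI with no overlap, and astrocyte and ependymal sums lower in PLM. Of all genes, 1.66% and 15.7% were lower in this way on the deposited values. Whether these shifts had a part in the channel results was not tested. Markers of dorsal root ganglion neurons were nearly absent: 9 genes summed to 1.78 to 3.67 TPM, and Mrgprd was listed at 0 in every sample. Protein genes of the mitochondrial genome took 23.7% to 32.8% of all TPM, and this share was higher in every PLM than in every SNI sample.

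Set against the mean log2(TPM + 1) of the neuron markers, Cacna1e was 0.60 higher in PLM than in SNI with no overlap, and the other members were between -0.06 and 0.10 with overlap. On this scale 9.63% of all genes tested were higher in PLM than SNI with no overlap. In SNI against JA, Cacna1e (-0.48), Cacna1b (-0.25), Cacna1d (-0.28) and Cacna1h (-0.29) were lower relative to the markers with no overlap, as were 21.5% of all genes. The neuron markers themselves averaged 7.62 ± 0.170 in SNI and 7.16 ± 0.335 in JA on this scale (SD, n = 3 each). In PLM against JA, Cacna1b (-0.28) and Cacna1c (-0.40) were lower relative to the markers with no overlap, as were 29.9% of all genes, while Cacna1e differed by 0.11 with overlap.

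Other genes of the channel complex were read from fixed lists. The beta subunits, which bind the pore from inside the cell and aid its transport, were all tested and none of the 4 was called in any comparison in limma. In PLM against SNI on the deposited values 2 of them were lower at an unadjusted p under 0.05, which 37.1% of all genes passed, and in the other comparisons and after centring none was. Their log2 differences of PLM from SNI were -0.23 for Cacnb1, -0.30 for Cacnb2, -0.17 for Cacnb3 and -0.18 for Cacnb4, and -0.05 to 0.08 after centring. Relative to the mean of the beta subunits, Cacna1e was 0.57 higher in PLM than SNI with no overlap, as were 10.9% of all genes. It was 0.41 higher in PLM than JA with no overlap, as were 5.95% of all genes, and differed by -0.16 with overlap in SNI against JA. This reference was chosen after its values were seen. The T-type gene Cacna1i measured 4.69 TPM ± 0.889 in SNI and 3.49 ± 0.297 in PLM (SD, n = 3 each), with a log2 difference of -0.33 (adjusted p = 0.127 in limma) that was -0.09 after centring. Cacna1f, Cacna1s and Cacna2d4, which serve mainly retina and skeletal muscle, averaged under 0.05 TPM in each group.

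Of 6 gamma subunits and TARPs tested, which include regulators of AMPA receptors, Cacng4 was lower in PLM than SNI (-0.36, adjusted p = 0.0400 in limma) and the other 5 were not called, against 13.9% of all genes called in either direction. At an unadjusted p under 0.05, 5 of the 6 were lower on the deposited values (37.1% of all genes) and none after centring (16.9%). After centring none was called (0.814% of all genes), and Cacng4 differed by -0.11 (adjusted p = 0.508). None of 18 loci for channel partners and regulators, such as the Rims scaffold genes of the release site, was called in any comparison on either scale in limma. At an unadjusted p under 0.05, 4 were lower in PLM than SNI and 4 higher in SNI than JA on the deposited values, against 2 higher in PLM than SNI, and 2 higher and 1 lower in SNI than JA, after centring. In PLM against JA 1 was higher as deposited and 3 after centring. Of all genes, 37.1% passed this threshold in PLM against SNI as deposited and 16.9% after centring, with 7.1% and 4.83% in SNI against JA, and 11.8% and 9.98% in PLM against JA.

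Some extracellular partners of alpha2delta were lower in PLM than SNI. The list includes thrombospondin genes, but none of these was called in limma or passed an unadjusted p of 0.05 in this comparison on either scale. Of the 8 partners tested, 3 were called on the deposited values and 1 after centring, against 13.9% and 0.814% of all genes. At an unadjusted p under 0.05, 5 and 2 were lower, against 37.1% and 16.9% of all genes. Those called included Lrp1, a receptor that binds alpha2delta (-0.85, adjusted p = 0.00686 in limma) and Prnp, the prion protein (-0.44, adjusted p = 0.0166). Lrp1 measured 13.22, 14.35 and 14.16 TPM in PLM, 28.74, 25.45 and 23.52 TPM in SNI, and 24.00, 17.85 and 13.94 TPM in JA. Its PLM and SNI samples did not overlap, and the call held after centring (-0.60, adjusted p = 0.0321), whereas that of Prnp (-0.19, adjusted p = 0.158) did not. The median of the 8 was -0.43 as deposited and -0.18 after centring, against -0.21 and 0.04 over all genes. Lrp1 and Prnp are also made by glia, and their levels moved in the same direction as the astrocyte markers. The part of those cells was not tested. No extracellular partner was called in SNI or PLM against JA, where 3 were higher in SNI and 1 lower in PLM at an unadjusted p under 0.05 on the deposited values, against 7.1% and 11.8% of all genes in either direction. After centring these counts were 0 in SNI against JA, and 1 lower and 1 higher in PLM against JA, where 4.83% and 9.98% of all genes passed.

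Across the 9 samples the members mostly varied together, as a description. Pairs of other genes were not examined, so whether this is particular to the members was not tested. Over the 45 pairs Pearson's r of log2(TPM + 1) had a median of 0.57 as deposited, and 41 pairs were above 0. After centring the median was 0.33 with 37 above 0. Cacna1b and Cacna2d2 were closest on both scales (r = 0.90 and 0.84), and Cacna1c and Cacna1g were farthest apart after centring (-0.72). The median r of Cacna1e with the others was 0.07 as deposited, the lowest of the members, and 0.34 after centring. SNI replicate 1 had the highest level of 7 of the 10 members. It also had the highest median log2(TPM + 1) of all samples (3.53), and the share of all genes that were highest in it was not counted.

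Genes whose centred pattern over the 9 samples was most like a member's were sought among 12656 named genes. For Cacna2d1 they were Rnf14 (r = 0.93), Cpeb1 (0.92) and Nop14 (0.91). Those for Cacna1b were Ncdn (0.97), Ulk1 (0.95) and Oprl1 (0.95), and those for Cacna1h were Rapgefl1 (0.95), Cabp1 (0.94) and Lbx1 (0.94). For Cacna1e, added after its values were seen, they were Serp2 (0.98), Ube2s (0.97) and Borcs6 (0.97), of which Borcs6 had an r of only 0.39 on the deposited values. These values describe 9 samples that span 3 groups and were picked as the highest of 12656.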

How the data were processed

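RNA sequencing of 9 ipsilateral L3-L6 spinal cord samples was read from 1 table of TPM values that the authors deposited. By the methods of the study, the authors trimmed adaptors, dropped low-quality reads, aligned the rest with HISAT2 and estimated levels with StringTie. The submitters' processing notes list fastp 0.19.5 and a human build name, although the gene identifiers are those of rat, so the build of the counting is uncertain and no coordinate comes from the table. TPM keeps no read depth, so depth per sample is unknown and no counting error is given. Groups were taken from the labels. Each pair of groups was fitted by limma 3.58.1 (R 4.3.3) on log2(TPM + 1), using its variance trend without covariates. Loci entered where the 6 samples averaged 1 TPM or more, and p-values were Benjamini-Hochberg adjusted over all loci tested. A fold change on this scale understates that of low genes. Centred values are log2(TPM + 1) minus the sample's median, plus the mean of the sample medians, so the overall level is kept. Medians were taken over the loci tested in each comparison. For displays of all 9 samples they were taken over loci that averaged 1 TPM or more. All 10 members passed the filter in each comparison through their level over both groups. No overlap means that every sample of 1 group lay above every sample of the other. Members were all named. Listed channel genes were named where called on either scale (beta subunits always), and the 3 genes with the highest r were named for Cacna2d1, Cacna1b and Cacna1h. The members and lists were chosen with earlier results of these data known. Alternatives were quantile normalization, TPM rescaled without the mitochondrial protein genes, a pseudocount of 0.1, other filters, 1 fit to 9 samples, a replicate block and leaving out each sample. Leaving out samples after centring (Cacna1e), overlap and list medians on centred values, levels relative to the beta subunits, the all-gene shares on the marker scales and ranks without SNI replicate 1 were added after seeing the data. Lipid, behaviour and protein data were not analysed here. The result of 1 listed gene is not reported here.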

Additional observations from a re-analysis of the deposited data

How the results depend on the processing

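No member was called in any comparison under any alternative run, and the lowest adjusted p over them was 0.0729 for PLM against SNI (Cacna1c), 0.266 for SNI against JA and 0.223 for PLM against JA. Cacna1e stayed higher in PLM than SNI in all 21 alternatives (0.17 to 0.70 on the log2 scale, adjusted p 0.166 to 0.427) and higher than JA in all 21 (0.21 to 0.58). Same-numbered samples did not deviate together (r between -0.05 and 0.13), nor was every sample closest to its own number, so the numbers were not read as pairs, and the fit with a replicate block called no member.

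Signs of differences that passed no threshold turned as follows, and the cause was not tested beyond the scaling itself. For PLM against SNI, median centring, with or without a replicate block, gave 0.0438 for Cacna1g, 0.102 for Cacna1h, 0.0410 for Cacna2d1, 0.0149 for Cacna2d2 and 0.0238 for Cacna2d3, and quantile normalization gave 0.0412, 0.0540, 0.0341, 0.0131 and 0.0144. For SNI against JA, centring with or without the replicate block gave -0.00083 for Cacna1c, and Cacna1e without SNI replicate 2 after centring gave 0.0345. For PLM against JA, centring with or without the replicate block gave 0.0591 for Cacna1b, 0.0380 for Cacna1d, 0.0642 for Cacna2d1 and 0.0712 for Cacna2d2, quantile normalization gave 0.0683, 0.00881, 0.0659 and 0.0614, and rescaling without mitochondrial genes gave 0.0022 for Cacna2d2.

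Leaving out 1 sample in turn gave ranges that crossed 0. For PLM against SNI this was -0.49 to 0.25 for Cacna2d3. For SNI against JA it was -0.14 to 0.16 for Cacna1e, -0.0202 to 0.43 for Cacna2d2 and -0.18 to 0.56 for Cacna2d3. For PLM against JA it was -0.0061 to 0.18 for Cacna1a, -0.15 to 0.0585 for Cacna1b, -0.19 to 0.0359 for Cacna1d, -0.12 to 0.14 for Cacna1g, -0.0622 to 0.11 for Cacna1h, -0.10 to 0.00021 for Cacna2d1, -0.25 to 0.20 for Cacna2d2 and -0.34 to 0.32 for Cacna2d3. Read depth is unknown, and a missed threshold does not show equal levels.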
